A study of Mus musculus with 12 samples.

Results

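The surfactant and lamellar body genes were described in alveolar type II (ATII) cells sorted from mouse lungs. These were the 4 surfactant protein genes Sftpa1, Sftpb, Sftpc and Sftpd and the 5 genes Abca3, Lamp3, Napsa, Slc34a2 and Lpcat1. The 9 genes were taken by symbol from the 23238 symbols of the count tables, and each was present in all 12 libraries. The cells were sorted as CD74-positive and EpCAM-positive, and each library came from 1 mouse, with 3 mice in each of 4 groups. The Con and BLM mice carried floxed p300 alleles without deletion (Spc-p300 f/f) in the study's account of its groups and are labelled as negative controls of the knockout, while the sample titles name Con alone WT. The supplementary methods name C57BL/6 mice of 8 to 10 weeks, beside the knockout mice, as the source of the sorted cells. The sources thus differ on the genotype of the controls. Con mice received PBS, and BLM mice received bleomycin, a DNA-breaking drug that injures the lung, at 4 mg/kg into the trachea. The KO mice received PBS after deletion of p300 by tamoxifen at 10 mg/kg, given at 8 weeks of age, and the KOBLM mice received the same deletion and the same bleomycin dose. LoxP sites flank exon 9 of p300, and the Cre enzyme that cuts there is driven by the promoter of surfactant protein C, so that the deletion was made in cells that had used the promoter of Sftpc. Nothing in the sources used here gives the time between bleomycin and the collection of the cells. The labels do not say whether Con and BLM mice received tamoxifen. For its qRT-PCR of sorted ATII cells, the study's legend names a treatment of Spc-p300 f/f mice with vehicle or tamoxifen. An effect of tamoxifen cannot be told apart from that of the deletion.

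Pulmonary surfactant is a film of phospholipid and protein that lowers the surface tension of the alveoli and keeps them from collapsing. ATII cells assemble its lipids and the hydrophobic proteins SP-B and SP-C in lamellar bodies, which are lysosome-related organelles, and release them into the airspace. The collectins SP-A and SP-D are secreted as well and bind sugars on inhaled microbes. Genes of this program are among the markers used to recognise ATII cells, and NKX2-1, a transcription factor, binds and activates several of their promoters.

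Levels are given as CPM, the raw count of a gene scaled to the total of its library so that each total is the same. The kit reads the 3′ end of each polyadenylated transcript, so that a transcript contributes in the same way whatever its length, and no correction for length was made. Libraries held between 7005005 and 11153154 counts, at which 3 counts, taken as the detection floor, correspond to 0.269 to 0.428 CPM (counting error only). Between 6847 and 13838 genes had a count in a library. The library BLM 3 had the fewest, and its rank correlation across genes with the other BLM libraries was 0.593 and 0.598, against 0.777 to 0.909 for the other 10 pairs of libraries of the same group. The log2 fold changes of BLM against Con for the 8 genes tested are given with and without it. Ep300, the gene of p300, was at 112 ± 52.7 CPM in Con and 134 ± 27.1 CPM in KO by the labels (SD, n = 3 each), but the kit reads a part of the transcript outside the floxed exon, so that its level does not check the deletion. The paper reports a check of the deletion in primary ATII cells by qRT-PCR, which was not analysed here.

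The 9 genes together held little of each library. Their summed level was 1033, 1955 and 526 CPM in the 3 Con libraries, 415, 478 and 163 CPM in BLM, 583, 170 and 656 CPM in KO and 616, 201 and 173 CPM in KOBLM. No library thus gave them more than 0.196% of its counts. The 4 surfactant protein genes alone summed to 804, 1653 and 449 CPM in Con, 165, 165 and 94.8 CPM in BLM, 400, 71.6 and 434 CPM in KO and 382, 106 and 18.5 CPM in KOBLM. All 9 libraries of the other groups lay below the lowest Con library.

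Markers of other cells were present in the same libraries. The 16 macrophage markers summed to 11798 to 25681 CPM in Con, 1002 to 11260 CPM in BLM, 10796 to 41071 CPM in KO and 8942 to 22440 CPM in KOBLM, more than the surfactant protein genes in every library, and none of the 16 was at or below the floor in all 3 libraries of a group. Chil3, a secreted chitinase-like protein of alveolar macrophages, led the list. The 7 fibroblast markers summed to 91.2 to 457 CPM in Con and 1134 to 1845 CPM in BLM, with Lum at or below the floor in every library. The T cell markers, 7 of which were in the files, summed to 817 to 1130 CPM in Con and 0 to 57.8 CPM in BLM, and nearly all of this was Cd2. The 9 epithelial markers summed to 677 to 858 CPM in Con and to 193, 346 and 1001 CPM in BLM. Of the genes used in the sort, Cd74 was at 460 to 2247 CPM over the 12 libraries and Epcam at 2.75 to 329 CPM. The part of these cell markers in the results on surfactant genes was not tested, and in sorted bulk samples fewer cells of a type and less RNA per cell cannot be told apart.

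**Figure D1:**
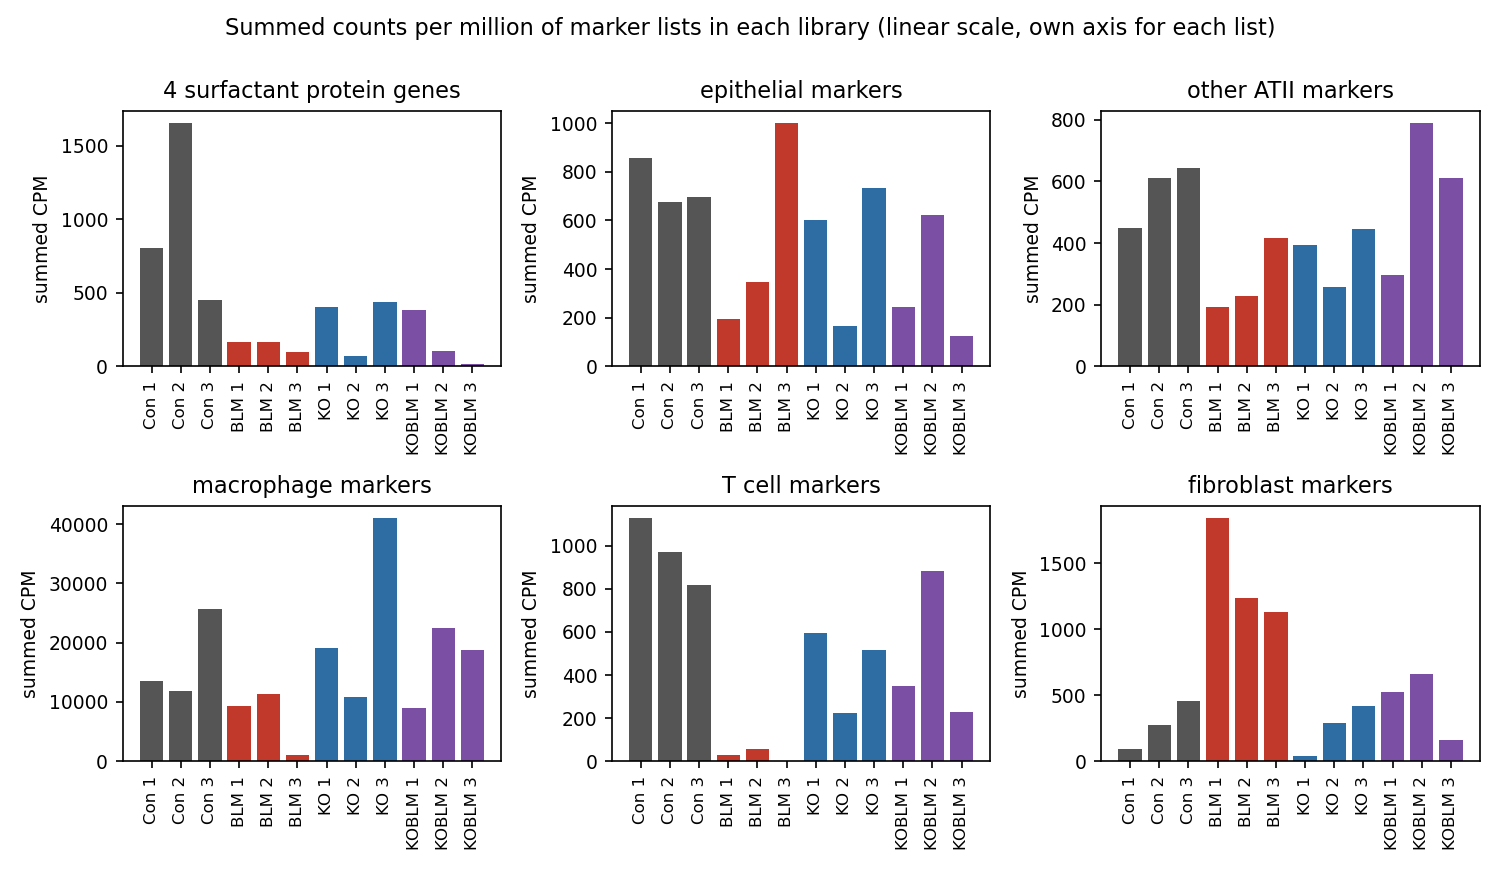
Summed CPM (y axis, linear, a separate scale for each panel) of the 4 surfactant protein genes and of 5 marker lists in each of the 12 libraries (x axis, colored by group). Surfactant protein genes were highest in the 3 Con libraries, from 449 to 1653 CPM, and the macrophage list exceeded them in every library. Cd2 made up nearly all of the T cell sum in Con. Lyz1 held 684 of 789 CPM of the other ATII markers in KOBLM 2 and 451 of 612 CPM in KOBLM 3. Etv5 held 397 of 416 CPM of that list in BLM 3.

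Sftpa1 encodes SP-A, the most abundant collectin of surfactant. It lies on chromosome 14 of GRCm38 from 41131782 to 41136452 on the plus strand, and its longest coding transcript has 6 exons. Its level was 294, 478 and 138 CPM in Con, 24.7, 44.98 and 17.5 CPM in BLM, 179, 19.1 and 233 CPM in KO and 135, 37.0 and 15.6 CPM in KOBLM. The order of the group means was Con, KO, KOBLM and BLM, and each neighboring pair in this order overlapped. Only Con and BLM, at the ends of the order, were fully apart among the 4 pairs of groups compared.

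Sftpb encodes SP-B, a small hydrophobic protein without which lamellar bodies do not form normally. It lies on chromosome 6 from 72304610 to 72314371 on the plus strand, with 11 exons. Its level was 202, 436 and 141 CPM in Con, 76.9, 87.9 and 3.59 CPM in BLM, 65.5, 25.8 and 117 CPM in KO and 67.4, 20.4 and 0 CPM in KOBLM. All 3 Con libraries were above the libraries of the other groups, and those groups overlapped each other.

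The promoters of these genes are shown because both are known targets of NKX2-1. They were taken from RefSeq on GRCm38.p6, where 6 of the 9 genes had an entry, and run over the 250 bases before the start of the transcript, 5′ to 3′ on the strand of the gene. Capitals mark CTCAAG, the core of the sites bound by NKX2-1, which was searched on both strands (CTTGAG on the other), and TATAAA, the TATA box, searched on both strands (TTTATA on the other).
Sftpa1, chr14:41131538-41131787, plus strand: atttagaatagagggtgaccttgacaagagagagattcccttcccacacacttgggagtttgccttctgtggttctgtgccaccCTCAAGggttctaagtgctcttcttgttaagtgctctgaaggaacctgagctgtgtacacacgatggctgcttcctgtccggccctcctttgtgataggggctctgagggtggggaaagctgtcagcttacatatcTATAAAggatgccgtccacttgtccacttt
Sftpb, chr6:72304360-72304609, plus strand: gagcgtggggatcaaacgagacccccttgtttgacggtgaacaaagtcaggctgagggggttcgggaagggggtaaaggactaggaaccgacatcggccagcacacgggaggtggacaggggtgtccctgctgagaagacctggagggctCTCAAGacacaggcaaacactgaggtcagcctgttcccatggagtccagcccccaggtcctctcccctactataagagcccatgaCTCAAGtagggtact
The Sftpa1 window held CTCAAG from 166 to 161 bases before the start and TATAAA from 30 to 25 bases before it. The Sftpb window held CTCAAG from 100 to 95 and again from 15 to 10 bases before the start. CTCAAG occurred in 13.33% of the 32851 promoter windows of this length and TATAAA in 12.37%, so that these matches describe the sequence only. Nkx2-1 itself was barely detected, with at most 4.55 CPM in a library.

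Sftpc encodes SP-C, a membrane-spanning peptide made in the adult lung only by ATII cells. It lies on chromosome 14 from 70520949 to 70524081 on the minus strand, with 6 exons. Its level was 232, 612 and 139 CPM in Con, 25.1, 18.1 and 73.7 CPM in BLM, 136, 11.1 and 74.2 CPM in KO and 105, 48.5 and 0.554 CPM in KOBLM. The 3 Con libraries were again above the libraries of the other groups, with KO 1 just below Con 3. In BLM the order of the libraries was not that of the other surfactant proteins, since BLM 3 had the highest Sftpc and the lowest Sftpa1, Sftpb and Sftpd.

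Sftpd encodes SP-D, the other collectin, and lies 35761 nt from Sftpa1 on chromosome 14, from 41172214 to 41185149 on the minus strand. Its level was 75.7, 128 and 30.7 CPM in Con, 38.5, 14.4 and 0 CPM in BLM, 19.1, 15.5 and 10.4 CPM in KO and 74.1, 0 and 2.33 CPM in KOBLM. The KO libraries were all below the Con libraries, whereas BLM 1 and KOBLM 1 lay within the range of Con. The order of the group means was Con, KOBLM, BLM and KO, and each neighboring pair overlapped.

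Abca3 encodes the transporter that carries phospholipid into lamellar bodies. Its level was 10.4, 20.6 and 29.2 CPM in Con, 19.7, 19.8 and 0 CPM in BLM, 24.9, 10.7 and 43.8 CPM in KO and 27.2, 0 and 2.99 CPM in KOBLM. All groups overlapped. The gene lies on chromosome 17 from 24351950 to 24410201, where genes on the opposite strand overlap it, and the strand setting of the counting is not given in the sources used here, so that reads from the opposite strand cannot be told apart.

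Lamp3 (chromosome 16, 19653378 to 19706375, minus strand) encodes DC-LAMP, a lysosomal membrane protein that is found in lamellar bodies and is also expressed by mature dendritic cells. Its level was 17.7, 41.2 and 0.377 CPM in Con, 3.28, 2.51 and 0 CPM in BLM, 13.3, 0.137 and 38.8 CPM in KO and 1.74, 0 and 0 CPM in KOBLM. Con and KO each had 2 libraries above 10 CPM and 1 near the floor, and no library given bleomycin exceeded 3.28 CPM. The low Con library kept Con and BLM from being apart.

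Slc34a2 (chromosome 5, 53038081 to 53071664, plus strand) encodes the sodium-phosphate cotransporter NaPi-IIb, which takes up the phosphate set free from surfactant phospholipid. Its level was 97.2, 118 and 7.63 CPM in Con, 12.6, 2.37 and 16.7 CPM in BLM, 36.7, 0 and 74.3 CPM in KO and 39.9, 28.1 and 0 CPM in KOBLM. Con 3 lay within the range of BLM, as for Lamp3, and the groups overlapped.

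Napsa encodes napsin A, an aspartic protease that processes the precursor of SP-B, and is also expressed in the kidney. It lies on chromosome 7 from 44572380 to 44586862 on the plus strand. Its level was 104, 122 and 40.4 CPM in Con, 214, 288 and 52.0 CPM in BLM, 108, 87.8 and 65.0 CPM in KO and 166, 67.4 and 151 CPM in KOBLM. The order of the group means was BLM, KOBLM, Con and KO, with overlap between neighbors, and the highest levels were those of BLM 1 and BLM 2. An antisense gene (Gm15396) overlaps Napsa, as Gm17182 does Slc34a2, and reads of the 2 strands cannot be told apart for either.

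Lpcat1 encodes the acyltransferase that makes dipalmitoyl phosphatidylcholine, the main surface-active lipid. It had 0, 4 and 0 counts in Con, 1, 3 and 0 in BLM, 2, 0 and 0 in KO and none in KOBLM. It thus exceeded 3 counts in 1 library and was not tested.

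**Figure D2:**
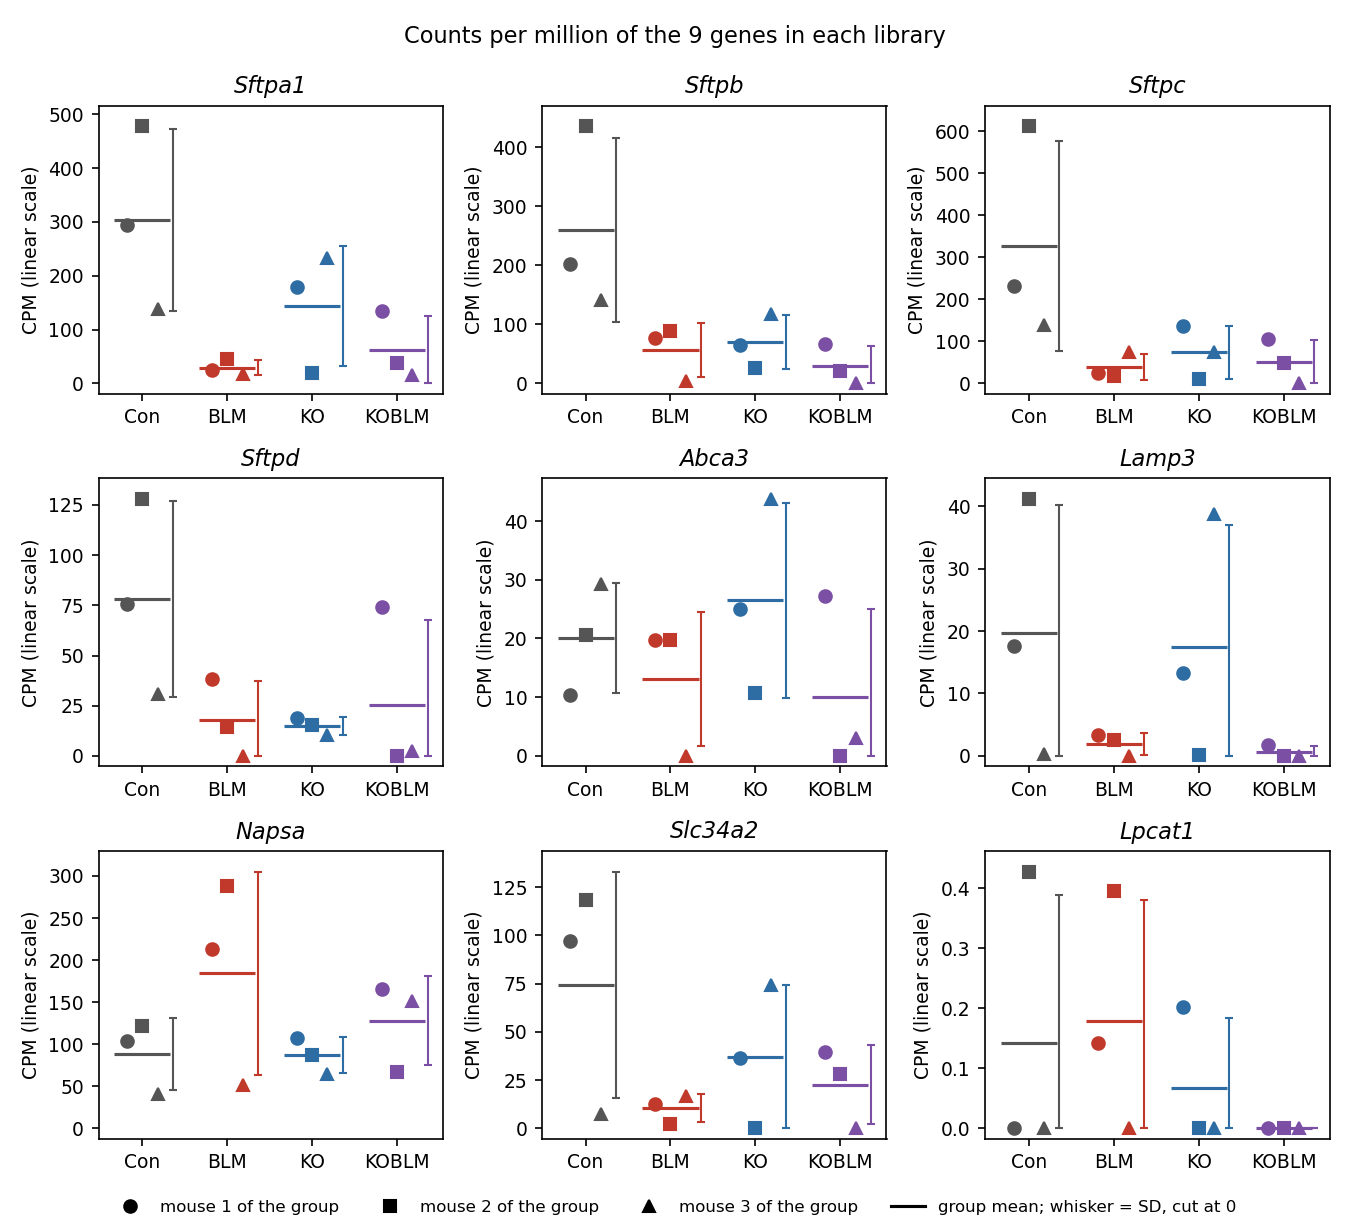
CPM (y axis, linear, a separate scale for each panel) of the 9 genes in the 12 libraries (x axis, group). Points are single mice, with a shape for each replicate number, bars are group means and whiskers are the SD (n = 3), drawn down to 0 at most. Sftpa1, Sftpb and Sftpc were lower in every BLM library than in every Con library, and the 2 highest Napsa levels were those of BLM 1 and BLM 2.

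To ask how bleomycin changed these genes in mice without the deletion, BLM was compared with Con. A gene was called where the fold change exceeded 1.5 and p before adjustment was under 0.05, which is the study's own threshold. Sftpa1 and Sftpc fell, and the other 6 genes tested did not pass. Mean Sftpa1 was 29.1 ± 14.3 CPM in BLM and 303 ± 170 CPM in Con (SD, n = 3 each), a 10.4-fold difference. By edgeR its log2 fold change was −3.32 (SE 0.99, 95% interval −5.43 to −1.21, p = 0.0045, adjusted p = 0.995, with 0.1 by the exact permutation test). Mean Sftpc was 39.0 ± 30.3 CPM in BLM and 327 ± 250 CPM in Con (SD, n = 3 each), an 8.40-fold difference. Its edgeR estimate was −3.20 on the log2 scale (SE 1.27, 95% interval −5.93 to −0.48, p = 0.0244, adjusted p = 0.995, with 0.1 by the exact permutation test). Neither passed after adjustment over the 13054 genes tested, and by edgeR no gene of the whole table did, while DESeq2 gave 114 genes with an adjusted p under 0.05, of which none was among the 9. The 2 genes called lower of 8 tested stand beside 2.08% of all genes called lower in this comparison (4.27% called in either direction, 2.19% called higher).

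Without BLM 3, the log2 fold change was −2.98 for Sftpa1 (edgeR, adjusted p = 0.596) and −3.82 for Sftpc (adjusted p = 0.70). Both were still called, beside 5.45% of all genes called in either direction. Sftpa1 stayed called when any of the 12 libraries was left out, whereas Sftpc was not called without Con 2 (log2 fold change −2.32), BLM 1 (−3.03) or BLM 2 (−2.93).

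The other surfactant proteins had estimates below zero with wide intervals. The log2 fold change of Sftpb was −2.10 (SE 1.45, 95% interval −5.20 to 1.01, edgeR p = 0.170, adjusted p = 1 and exact permutation p = 0.1), although its groups did not overlap. That of Sftpd was −2.06 (95% interval −6.29 to 2.17, p = 0.315 by edgeR, adjusted p = 1, and 0.2 by the exact permutation test). Without BLM 3 these were −1.53 for Sftpb and −1.47 for Sftpd. In CPM, Sftpa1, Sftpb and Sftpc were lower in each BLM library than in each Con library, and an exact permutation p of 0.1 is the smallest that 3 mice against 3 allow. Of all genes tested, 11.8% were lower without overlap in the same way.

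Among the lamellar body genes, no change was called. The log2 fold change was −3.26 for Lamp3 (95% interval −9.05 to 2.53), −2.92 for Slc34a2 (−7.14 to 1.30) and −0.46 for Abca3 (−4.79 to 3.86). These intervals are too wide to separate no difference from a large one. With all libraries in the fit, Napsa was the only gene of the 8 with an estimate above zero, at 1.16 (SE 0.75, 95% interval −0.44 to 2.76, edgeR p = 0.142, adjusted p = 1 and exact permutation p = 0.4). Without BLM 3 it was called higher, with a log2 fold change of 1.64 (edgeR, adjusted p = 0.596), beside 5.45% of all genes called. Abca3 was then at 0.12, Lamp3 at −2.67 and Slc34a2 at −3.24. Over the 8 genes tested the median log2 fold change was −2.51, with 7 below zero, beside a median of −0.08 over all genes.

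**Figure D3:**
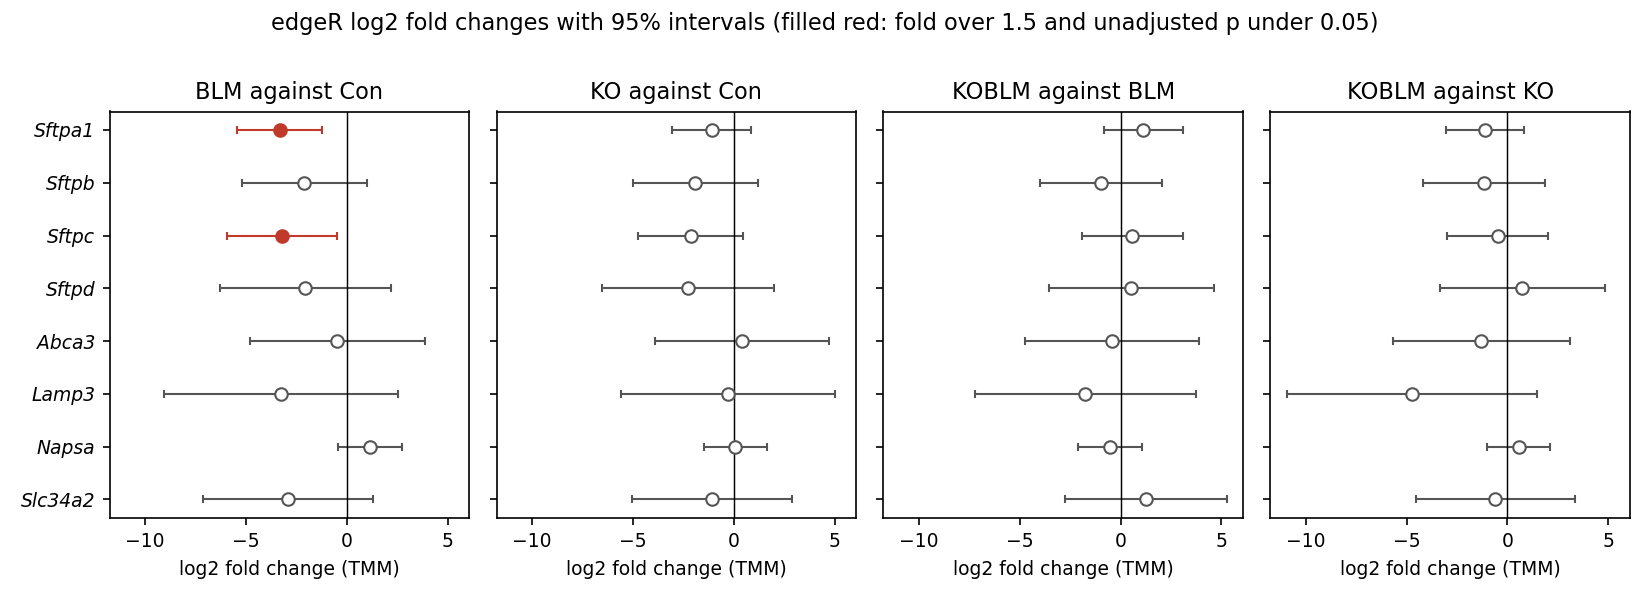
Log2 fold changes of the 8 genes tested (x axis, TMM-normalized, edgeR) with their 95% intervals, in 4 comparisons. Filled red points mark called genes, which held for Sftpa1 and Sftpc in BLM against Con and for no gene in the other 3 comparisons.

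The make-up of the 9-gene group differed between Con and BLM libraries. Napsa held 10.0%, 6.22% and 7.68% of the counts of the 9 genes in the Con libraries and 51.5%, 60.2% and 31.8% in the BLM libraries. The 4 surfactant proteins held 77.8%, 84.6% and 85.2% in Con and 39.8%, 34.6% and 58.0% in BLM. There were 7.75, 13.6 and 11.1 surfactant protein counts per Napsa count in Con and 0.773, 0.574 and 1.82 in BLM. The groups were apart in this ratio, which does not depend on the library total. It was chosen after the data had been seen and was not tested. Its divisor was the only gene tested with an estimate above zero, so that it adds no separate support. The ratio was 3.72, 0.815 and 6.68 in KO and 2.31, 1.57 and 0.122 in KOBLM, all below Con and in part within the range of BLM. Napsa was thus the most counted of the 9 genes in BLM 1, BLM 2, KO 2 and all KOBLM libraries, and in no Con library.

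The balance of the surfactant proteins among themselves also varied. Sftpc counts per Sftpb count were 1.15, 1.40 and 0.985 in Con and 0.327, 0.206 and 20.6 in BLM. The BLM libraries lay on either side of Con, with BLM 3 far above it. In KOBLM 3 no count of Sftpb and 5 counts of Sftpc were found at a total of 9021079 counts.

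**Figure D4:**
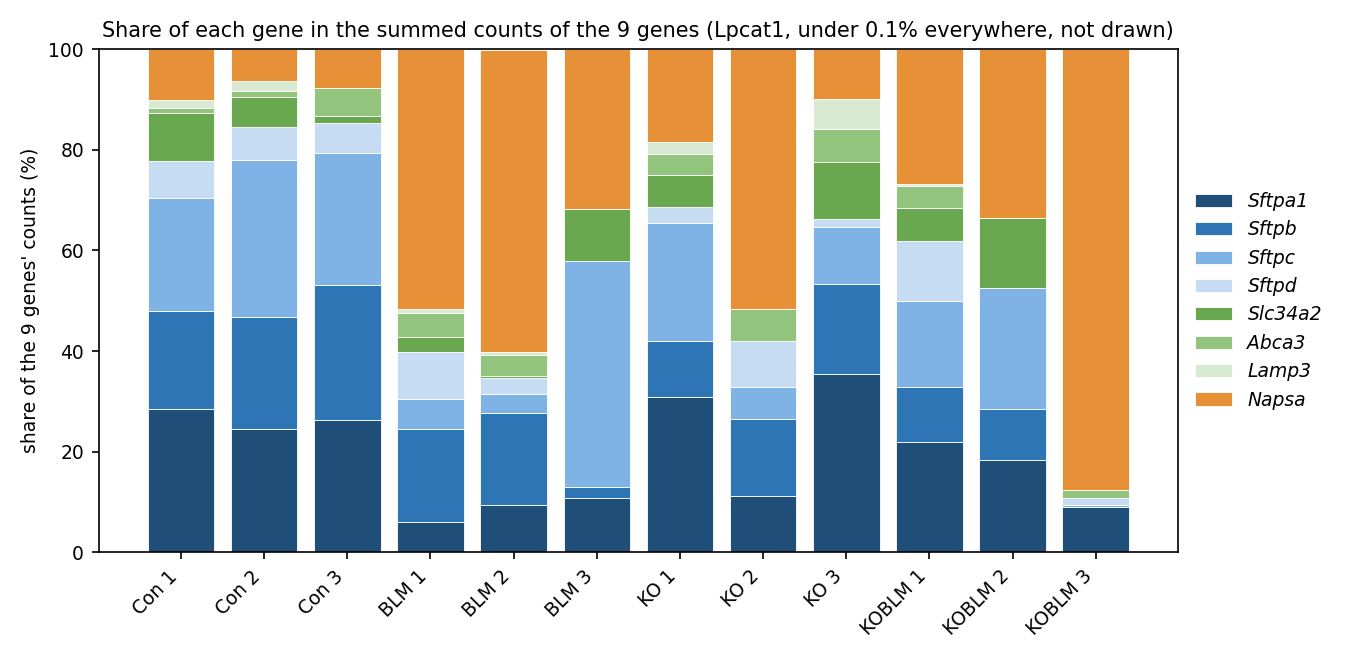
Share of each gene in the summed counts of the 9 genes (y axis, %) in the 12 libraries (x axis). Surfactant proteins are in blue, Slc34a2, Abca3 and Lamp3 in green and Napsa in orange. Napsa held between 6.22% and 10.0% in Con and between 31.8% and 60.2% in BLM.

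Scaling to epithelial genes gave another picture of the spread. Surfactant protein counts per Epcam count were 4.01, 20.0 and 3.79 in Con, 17.3, 4.62 and 0.288 in BLM, 2.21, 26.1 and 5.66 in KO and 35.2, 0.697 and 6.19 in KOBLM. The 4 groups overlapped widely on this scale, and Epcam itself ranged from 9.56 to 329 CPM within BLM alone. Per count of the 9 epithelial markers they were 0.937, 2.44 and 0.643 in Con and 0.855, 0.477 and 0.0947 in BLM, again with overlap. Krt19 alone made up 57.9 to 65.8% of the epithelial counts in Con and 0 to 5.90% in BLM. With Krt19 left out of the list, the ratio was 2.23, 6.61 and 1.88 in Con and 0.908, 0.503 and 0.0947 in BLM, and these groups were apart. Whether Con and BLM were apart relative to epithelial counts thus depended on the markers used. These ratios were added after the data had been seen and were not tested.

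To see whether the deletion in p300 changed these genes without injury, KO was compared with Con. No gene of the 8 tested was called by edgeR or DESeq2, beside 1.44% of all genes by edgeR, and none had an unadjusted p under 0.05 by either tool. Sftpb, Sftpc and Sftpd were lower in each KO library than in each Con library without overlap, as were 7.56% of all genes. Mean Sftpb was 69.4 ± 45.7 CPM in KO and 260 ± 156 CPM in Con (SD, n = 3 each), and edgeR gave −1.90 on the log2 scale (95% interval −4.99 to 1.18, p = 0.208, adjusted p = 1 and exact permutation p = 0.1). That of Sftpc was −2.12 (95% interval −4.73 to 0.49, edgeR p = 0.103, adjusted p = 1 and exact permutation p = 0.1), from a mean of 73.9 ± 62.6 CPM in KO (SD, n = 3). For Sftpd it was −2.27 (95% interval −6.53 to 1.997, edgeR p = 0.274, adjusted p = 1 and exact permutation p = 0.1), from 14.98 ± 4.37 CPM in KO and 78.1 ± 48.7 CPM in Con (SD, n = 3 each).

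The call for these 3 genes depended on which libraries set the spread. In an edgeR model of the Con and KO libraries alone, all 3 were called, beside 2.04% of the 11190 genes tested there, with log2 fold changes of −1.87 for Sftpb, −2.09 for Sftpc and −2.25 for Sftpd (adjusted p = 1 each). Without KOBLM 3, which belongs to neither group, Sftpc was called in the model of 4 groups at a log2 fold change of −2.12, beside 0.924% of all genes. Sftpa1 had a log2 fold change of −1.09 (95% interval −3.04 to 0.86), with KO 2 at 19.1 CPM apart from the other KO libraries. Napsa was near zero at 0.09 (95% interval −1.49 to 1.67), an interval that still holds a change of more than 2-fold in either direction. Over the 8 genes the median was −1.07, beside −0.09 over all genes. Sftpc is also the gene whose promoter drives Cre in these mice.

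KOBLM was compared with BLM to ask what deletion of p300 did under bleomycin. None of the 8 genes tested was called by edgeR or DESeq2, beside 3.16% of all genes by edgeR, none had an unadjusted p under 0.05 by either tool, and no gene of the 9 was apart between the groups, where 6.04% of all genes were higher and 4.98% lower without overlap. Sftpa1 was 62.4 ± 63.4 CPM in KOBLM and 29.1 ± 14.3 CPM in BLM (SD, n = 3 each), and edgeR gave 1.12 on the log2 scale (95% interval −0.83 to 3.08, p = 0.240, adjusted p = 1 and exact permutation p = 0.7). Sftpc had a log2 fold change of 0.59 (95% interval −1.92 to 3.11) and Sftpb one of −0.98 (−4.00 to 2.03). The median over the 8 genes was 0.06, with 4 above and 4 below zero. Without KOBLM 1 the log2 fold change of Sftpa1 was −0.11.

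KOBLM was also compared with KO, which shows bleomycin in mice labelled as carrying the deletion. By edgeR no gene of the 8 was called or had an unadjusted p under 0.05, beside 1.69% of all genes called. DESeq2 called Lamp3, beside 3.52% of all genes, with a log2 fold change of −4.77 (p = 0.0363, adjusted p = 1), where edgeR gave −4.73 (95% interval −10.94 to 1.48, p = 0.125, adjusted p = 1) and the exact permutation test p = 0.2. Lamp3 rested on 13 counts in KOBLM, all in KOBLM 1, and on 131, 1 and 419 counts in KO. The log2 fold change was −1.11 for Sftpa1 (95% interval −3.07 to 0.84) and −0.49 for Sftpc (−3.00 to 2.02). Without KOBLM 1, edgeR called Sftpa1 lower (−2.40) and also Lamp3, beside 0.898% of all genes. Lamp3 was at 0 in both remaining KOBLM libraries, so that no fold is given.

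The difference between the bleomycin effects in mice labelled as with and without the deletion was tested as an interaction. It was called for none of the 8 genes by edgeR or DESeq2, beside 2.82% of all genes by edgeR, and none had an unadjusted p under 0.05 by either tool. The estimate was 2.21 for Sftpa1 (95% interval −0.55 to 4.97, adjusted p = 1) and 2.71 for Sftpc (95% interval −0.89 to 6.32, adjusted p = 1) on the log2 scale by edgeR. A smaller fall of Sftpa1 and Sftpc under bleomycin in mice with the deletion was therefore not shown. Without KOBLM 3 the interaction of Sftpc was called, at 3.30 on the log2 scale, beside 3.34% of all genes.

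Genes of the wider surfactant pathway were described from a list of 27 that make, process, secrete or recycle surfactant lipid, of which 26 were tested. None was called in BLM against Con by edgeR, beside 4.27% of all genes. In this comparison 14 lay above and 12 below zero, where 47.3% of all genes lay above it. The list summed to 3714 to 4084 CPM in Con, 2548 to 3223 CPM in BLM, 3072 to 3535 CPM in KO and 2841 to 5105 CPM in KOBLM. Ctsh, a cathepsin that processes SP-B and SP-C, was at 299 ± 63.9 CPM in Con and 290 ± 158 CPM in BLM (SD, n = 3 each). In KO against Con, 1 gene of the 26 tested was called, beside 1.44% of all genes. This was Fabp5, a fatty acid carrier, which was higher (log2 fold change 1.76 by edgeR, adjusted p = 1). It was at 143, 185 and 295 CPM in Con and 286, 1150 and 394 CPM in KO, with Con 3 just above the lowest KO library. The call was lost without Con 1, Con 2, KO 2 (log2 fold change 0.74) or KOBLM 2. In KOBLM against BLM, again 1 gene was called, beside 3.16% of all genes. This was Csf2ra, a chain of the GM-CSF receptor through which alveolar macrophages clear surfactant, which was higher (1.39 by edgeR, adjusted p = 1). It was at 548, 680 and 207 CPM in BLM and 499, 2280 and 1025 CPM in KOBLM, and BLM 3 was again the lowest. The call was lost without BLM 1, BLM 3 (log2 fold change 0.98) or KOBLM 2 (0.74). No gene of the list was called in KOBLM against KO, beside 1.69% of all genes. Csf2ra and Fabp5 are also expressed by macrophages.

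Of 9 regulators of surfactant genes, 8 were tested. None was called in BLM against Con or in KO against Con, beside 4.27% and 1.44% of all genes. In BLM against Con 4 lay above and 4 below zero, with a median log2 fold change of 0.21. Cebpa, a C/EBP factor that acts in the maturation of ATII cells and is also expressed in myeloid cells, was at 354, 311 and 254 CPM in Con and 67.4, 118 and 0.18 CPM in BLM. The groups were apart, where 11.8% of all genes were lower without overlap, but the gene was not called (log2 fold change −2.15 by edgeR, adjusted p = 0.995). Without BLM 3 it was called (−1.56), beside 5.45% of all genes. Foxa2 was called lower in KOBLM against BLM, and Grhl2 was called higher in KOBLM against KO. Each was the only gene of the 8 called there, beside 3.16% and 1.69% of all genes. Foxa2 was at 13.1, 1.45 and 0.18 CPM in BLM and 0 in all KOBLM libraries, and Grhl2 was at 10.4, 0 and 2.77 CPM in KOBLM and 0 in all KO libraries. Each call thus rested mainly on 1 library, and no fold is given. Of the 12 omissions of 1 library, 10 ended the call of Foxa2 and 11 that of Grhl2.

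Of 10 further ATII markers, all were tested and 9 lay below zero in BLM against Con, where 47.3% of all genes lay above it. There Cxcl15, a chemokine made by ATII cells, was called lower, at 92.95, 183 and 81.8 CPM in Con and 3.28, 2.24 and 16.0 CPM in BLM (log2 fold change −4.22 by edgeR, adjusted p = 0.995). Hc, complement component C5, and Egfl6, a secreted matrix protein, were called lower as well and were at 0 in all BLM libraries. With Cxcl15, 3 of the 10 were called lower, beside 2.08% of all genes. Hc was at 7.36, 23.9 and 12.6 CPM in Con and Egfl6 at 5.22, 26.3 and 0 CPM. The call of Cxcl15 was lost without Con 2, BLM 1 or BLM 2, that of Hc without BLM 1 or BLM 2, and that of Egfl6 in 8 of the 12 omissions of 1 library. In KO against Con none was called, beside 1.44% of all genes. There 9 again lay below zero, where 44.9% of all genes lay above it. In KOBLM against BLM Lyz1, a lysozyme, was called higher (log2 fold change 2.63 by edgeR, adjusted p = 1). In KOBLM against KO Hc was called lower, at 0 in all KOBLM libraries. Each was the only gene of the 10 called there, beside 3.16% and 1.69% of all genes. The call of Lyz1 was lost without BLM 1, KOBLM 2 or KOBLM 3, and that of Hc in 8 of the 12 omissions. Lyz2 of the macrophage list was called higher in the same comparison as Lyz1 (log2 fold change 2.45 by edgeR), beside 3.16% of all genes. At 0.54 CPM for Lyz1 and 8.97 CPM for Lyz2, BLM 3 was the lowest library for both. The cells that gave the Lyz1 counts were not tested.

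Of the 9 epithelial markers 7 were tested. In BLM against Con 4 lay above and 3 below zero, where 47.3% of all genes lay above it, and 1 was called, beside 4.27% of all genes. Krt19, a keratin, was called lower there, at 497, 427 and 459 CPM in Con and 11.4, 17.5 and 0 CPM in BLM (log2 fold change −5.42 by edgeR, adjusted p = 0.995). In KOBLM against BLM Krt19 was called higher (4.05 by edgeR, adjusted p = 1), and Cdh1, the gene of E-cadherin, was called lower (−1.53, adjusted p = 1). Both calls stand beside 3.16% of all genes called in this comparison. The Krt19 calls held without each library in turn, and that of Cdh1 was lost in 7 of the 12 omissions. Other keratins of the list did not fall with Krt19. Krt7, Krt8 and Krt18 were at most 3.34 CPM in Con. Over BLM 1, BLM 2 and BLM 3, Krt7 was at 11.3, 6.73 and 0 CPM. Krt8 was at 9.99, 13.6 and 96.3 CPM there and Krt18 at 9.42, 0.92 and 62.4 CPM. The highest levels of Krt8 and Krt18 were thus those of BLM 3 alone. Cd2 of the T cell list and Itgax of the macrophage list were called in the same directions as Krt19 in both comparisons. The cells that gave the Krt19 counts were not tested.

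Over the 12 libraries, the level of each gene was compared with the mean of the other 7 tested genes on a standardized log2 scale, as a description. Pearson's r was 0.873 for Sftpb, 0.866 for Sftpa1, 0.810 for Lamp3, 0.796 for Sftpd, 0.667 for Abca3 and for Sftpc, 0.611 for Slc34a2 and 0.057 for Napsa. Napsa therefore varied apart from the rest. The 5 other genes most like the mean of the 8, among 8905 genes of at least 10 CPM on average, were Ankrd46 (r = 0.872), Gpd1 (0.867), Nfix (0.845), Npr1 (0.843) and Zfp523 (0.841), where 95% of genes had an r below 0.594. Depth and the levels of cell markers differed between these libraries, and their part in these values was not tested. The mean was chosen as the target, so that the values describe likeness only.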

How the data were processed

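Libraries of 12 mice, made from sorted ATII cells with the QuantSeq 3′ kit, were used. Whole-number raw counts per gene symbol, not normalized, were deposited by the authors for each library. The submitters' processing notes name Bowtie2, edgeR and mm10, and no versions. The counting program and its strand setting are not given in the sources used here. Counts of 35 symbols listed more than once (79 entries) were summed. Groups were taken from the sample labels. The 9 genes and the gene lists were chosen with earlier results of these data known. Named were all 9 genes and, from the other lists, genes called in a comparison, besides Cd74, Epcam, Nkx2-1 and Ep300. Ctsh, Cebpa, Chil3, Lum, Etv5, Krt7, Krt8 and Krt18 were chosen after their values were seen. Replicates were separate mice.

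Low genes were removed by filterByExpr in edgeR 4.0.16 (minimum count 10, minimum total 15), which left 13054 genes and 8 of the 9. Counts were TMM-scaled (factors 0.835 to 1.26) and fitted by the quasi-likelihood F test of edgeR in a model of the 4 groups with 8 residual degrees of freedom. The common dispersion was 2.08, a coefficient of variation of 1.44 between mice. P values are two-sided, and adjusted p is Benjamini-Hochberg over all genes. The 95% intervals were derived from the F statistic and are approximate. Permutation tests were exact, on log2(CPM + 1). Comparisons that share a group are not independent. The fit was tested on simulated data, with a pass condition set only at a dispersion far below that of these data. This does not check the fit at the spread found here.

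Alternatives were library size alone, DESeq2 size factors, no filter, Rn45s left out (2.04 to 21.6% of the counts of a library), DESeq2 1.42.0, a model of just the compared groups, calls on the adjusted p, the replicate number as a block, and each library left out. The omission of the 3 libraries with under 10000 genes detected was added after seeing the data. So were the ratios of counts (to Napsa, of Sftpc to Sftpb and to epithelial genes). Software was R 4.3.3 and Python 3.11.15 (scipy 1.17.1, numpy 2.4.6, matplotlib 3.10.9, pandas 2.3.3). Gene positions are from GENCODE M21. ChIP-seq and qRT-PCR data were not analysed here.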

Additional observations from a re-analysis of the deposited data

How the results depend on the processing

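Of the 8 genes tested, Sftpa1 was called lower in BLM against Con under every alternative fit and without each library in turn, but its adjusted p stayed above 0.05, the lowest being 0.0512 by DESeq2. In BLM against Con 2 genes were called as reported, 1 with the replicate number as a block, 0 with an adjusted p and 3 without the 3 libraries with under 10000 genes detected, where 9.46% of all genes were called. In KO against Con 1 was called without the filter on low counts, beside 1.31% of all genes, and 3 with only the 2 groups in the fit, beside 2.04%. In KOBLM against KO 1 was called by DESeq2, beside 3.52%. Leaving out each library in turn gave 1 to 3 calls in BLM against Con, 0 to 1 in KO against Con, 0 to 0 in KOBLM against BLM, 0 to 2 in KOBLM against KO and 0 to 1 for the interaction. The 3 calls in BLM against Con came without BLM 3 and included Napsa, which was called higher. The share of all genes called ran from 2.08% to 5.45%, 0.627% to 3.2%, 1.67% to 3.34%, 0.741% to 3.07% and 2.36% to 4.82% in the same order. The median log2 fold change of the 8 genes then ran from −3.11 to −1.76, from −1.71 to −0.49, from −1.61 to 0.54, from −2.58 to −0.31 and from −0.73 to 2.08 in the same order. Directions that turned were those of Sftpd in KOBLM against KO (−0.82) and Lamp3 in KO against Con (2.80) with the block, of Napsa in KO against Con with library size alone (−0.029), and of Abca3 in BLM against Con (0.12) and Slc34a2 in KOBLM against KO (0.11) without the 3 libraries. None of these had passed the threshold, and the cause was not tested.

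Leaving out 1 library turned further directions, none of them of a called gene. In KOBLM against BLM the log2 fold change then ran from −0.11 to 1.72 for Sftpa1, −0.47 to 1.21 for Sftpc, −3.82 to 1.74 for Sftpd, −3.07 to 0.17 for Abca3 and −0.997 to 0.055 for Napsa. In KOBLM against KO it ran from −1.62 to 0.40 for Sftpc, −3.65 to 1.33 for Sftpd and −1.35 to 0.26 for Slc34a2. In KO against Con it ran from −1.48 to 0.93 for Lamp3 and −0.27 to 0.43 for Napsa, and in BLM against Con from −0.95 to 0.12 for Abca3. The interaction ran from −0.65 to 1.504 for Sftpb and from −1.58 to 4.01 for Sftpd. Of the 480 values from leaving out a library, 453 kept their direction and side of the threshold, as did 299 of 312 under the other alternatives. Many of the libraries left out belonged to neither group compared, and most values were not called at the start. These counts were therefore largely set in advance and do not measure robustness. The deviations of each library from its group mean (log2 CPM) were correlated across genes between libraries of the same number in 2 groups. These correlations lay between −0.114 and 0.096, so that the numbers were not taken to pair the mice. With them as a block, 394 genes of the whole table were called in BLM against Con, compared with 558 without it. DESeq2 called 947 there, 374 in KO against Con, 755 in KOBLM against BLM, 460 in KOBLM against KO and 625 for the interaction, where edgeR called 188, 413, 221 and 368 in the last 4. With library size alone the median of all genes in KO against Con was −0.21 in place of −0.09. With 3 mice a group and this spread, many intervals span more than a 10-fold change, and Lpcat1 was too low to be compared.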
